A study of Rattus norvegicus with 6 samples.

Results

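The genes described here are the 9 members of the rat DNA methylation machinery that write, erase and read methylated cytosine: the writers Dnmt1, Dnmt3a and Dnmt3b, the erasers Tet1, Tet2 and Tet3, and the readers Mbd1, Mbd2 and Mbd3. They were chosen by gene symbol from the 22062 protein-coding genes of the deposited expression table, and each symbol matched 1 row. Their RNA was measured in the hippocampus of Sprague Dawley rats. The SPS group underwent single prolonged stress, which models post-traumatic stress disorder in rodents: 2 hours of restraint, a forced swim of 20 minutes, 15 minutes of rest, and anaesthesia to loss of consciousness before return to the cage. The Control group stayed in home cages without handling. There were 3 SPS and 3 Control libraries, made from ribosome-depleted total RNA and sequenced for 150 cycles. The labels give no age, no sex and no time between stress and dissection. Nor do they state whether samples came from different animals, and the p-values therefore reflect the spread among these libraries, which may be technical.

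Methylated cytosines lie mostly in CpG dinucleotides in mammalian DNA. DNMT1 copies methylation onto the new strand after replication, whereas DNMT3A and DNMT3B place it on unmethylated sites. The TET dioxygenases oxidise methylcytosine to hydroxymethylcytosine and further forms that can be removed by base excision repair, and hydroxymethylcytosine is abundant in brain. MBD proteins carry a methyl-CpG-binding domain, and MBD2 and MBD3 are alternative subunits of the NuRD corepressor, a remodelling and deacetylase complex. Mammalian MBD3 itself binds methylated CpG only weakly.

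The SPS libraries held 4081184 to 11148531 reads and the Control libraries 4786503 to 11838770, and 12441 genes passed the expression filter. Neuronal markers were present in every library, with a summed level of 4524 to 11561 CPM (reads in 1000000, TMM-normalised) in SPS and 6983 to 12329 CPM in Control over 10 genes. Choroid plexus markers reached 33116 CPM in SPS replicate 2, against 25.1 to 138 CPM in the other 5 libraries over the same 8 genes, of which Otx2 was at 0 in all 6. The 9 oligodendrocyte markers summed to 12814 to 30117 CPM in SPS and 8433 to 12981 CPM in Control, and all 9 were higher in SPS in each same-numbered pair. Sums of pericyte and fibroblast markers and of blood markers were highest in Control replicate 2, at 497 and 515 CPM. The part of these cell types in the values below was not tested. In bulk tissue, fewer cells of a type and less RNA per cell cannot be told apart.

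The study asked which hippocampal transcripts differ after SPS. No writer, eraser or reader passed the test between SPS and Control. By edgeR's quasi-likelihood test 0 of the 8 members tested passed at an adjusted p of 0.05, where 0% of all genes tested passed, and each member had an adjusted p of 1.00. At an unadjusted p under 0.05 there were also 0 members, where 0.338% of all genes tested were called, and the members' unadjusted p ranged from 0.713 to 0.957. DESeq2 and limma on FPKM also called 0 members by adjusted or unadjusted p. Dnmt3b was the member that did not pass the expression filter. Of the 8 tested, 4 had a positive and 4 a negative log2 fold change (SPS minus Control), with a median of 0.0026, beside −0.02 over all genes tested. In 0 of the 8 did the SPS and Control libraries separate without overlap, where 1.54% of genes lay wholly above and 1.4% wholly below Control. On group alone the standard errors (SE) were wide, with log2 medians of 0.69 for the members and 0.56 for all genes tested. That fit could not detect differences of that size with 3 libraries a group. With the replicate number as a block the members called were also 0 by adjusted and by unadjusted p, where 0% and 1.38% of all genes tested were called. The median SE in the blocked fit was lower, at 0.31 for the members and 0.33 for all genes tested.

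**Figure D1:**
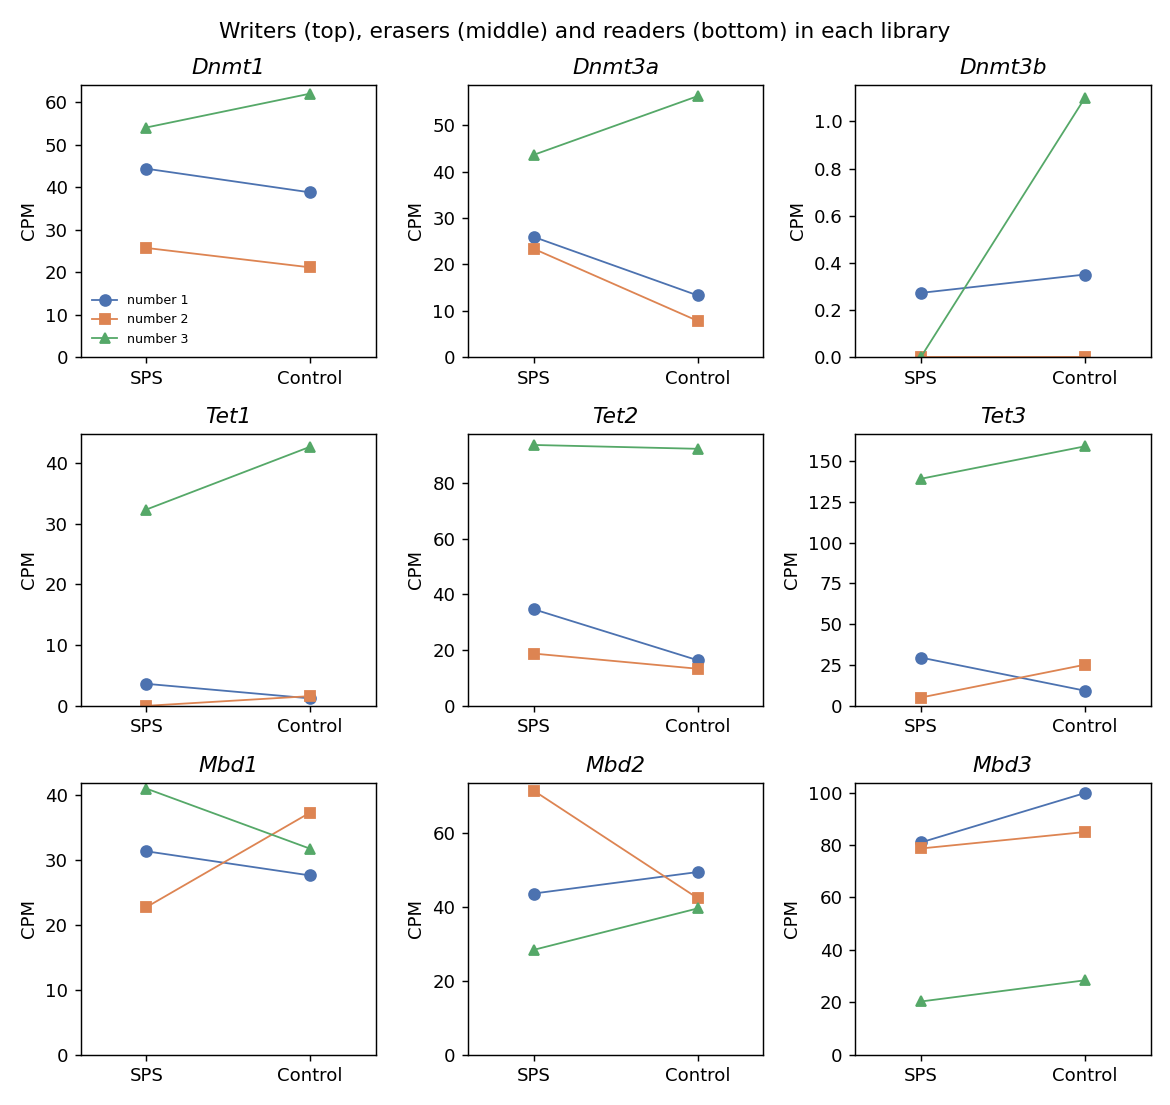
TMM-normalised CPM (linear axes from 0) of each member in SPS (left) and Control (right) libraries. Lines join libraries of the same replicate number. The green lines, number 3, lie far above the others for Tet1, Tet2 and Tet3 and far below them for Mbd3, while the SPS and Control columns overlap in every panel.

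Among the writers, Dnmt1, the maintenance methyltransferase (ENSRNOG00000039859, chromosome 8, 21922514 to 21968495 in the coordinates of the deposited table, whose build is not given in the sources used here), was measured with 1745 reads in all. It was at 44.4, 25.7 and 54.1 CPM in SPS replicates 1 to 3, against 38.8, 21.1 and 62.1 CPM in Control replicates 1 to 3. The groups overlapped, and in both the library numbered 2 was lowest and that numbered 3 highest. The log2 fold change was 0.03 ± 0.49 (SE).

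Dnmt3a, a de novo methyltransferase required for neuronal methylation after birth in mouse (ENSRNOG00000026649, chromosome 6, 28235694 to 28340577), was at 25.9, 23.4 and 43.6 CPM in SPS replicates 1 to 3, against 13.3, 7.81 and 56.3 CPM in Control replicates 1 to 3. SPS was higher in the pairs numbered 1 and 2 and lower in the pair numbered 3. The log2 ratios of CPM + 1 within pairs were 0.91, 1.47 and −0.36. Over all libraries the log2 fold change was 0.27 ± 0.74 (SE), and with the replicate number as a block it was 0.71 ± 0.43 (SE; edgeR unadjusted p = 0.157, adjusted p = 0.967). Without Control replicate 3 the log2 fold change was 1.53 (edgeR unadjusted p = 0.0280, adjusted p = 0.999), a setting in which 1.78% of all genes had an unadjusted p under 0.05, and without Control replicate 2 it was −0.17. Both fits were on group alone, so the number of the library left out stayed in SPS only. Without both libraries numbered 3 the log2 fold change was 1.22 (edgeR unadjusted p = 0.0712), and without both numbered 2 it was −0.012.

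Dnmt3b, the other de novo enzyme (ENSRNOG00000010625, chromosome 3, 149131784 to 149208786), was barely detected. It had 3, 0 and 0 reads in SPS replicates 1 to 3 and 4, 0 and 5 reads in Control replicates 1 to 3. A count of 0 allows up to 0.694 CPM in SPS replicate 2, 0.539 CPM in SPS replicate 3 and 0.532 CPM in Control replicate 2, taking 3 reads as the limit and covering counting error only. No fold change is given for it.

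The regions around the transcription starts of both measured writers are shown because CpG, the substrate of the enzymes, is frequent in them. They come from RefSeq (GRCr8), run from 250 bases before the start to 50 after it, and have CpG dinucleotides in capitals.
Dnmt1, chr8:27762792-27763091, minus strand: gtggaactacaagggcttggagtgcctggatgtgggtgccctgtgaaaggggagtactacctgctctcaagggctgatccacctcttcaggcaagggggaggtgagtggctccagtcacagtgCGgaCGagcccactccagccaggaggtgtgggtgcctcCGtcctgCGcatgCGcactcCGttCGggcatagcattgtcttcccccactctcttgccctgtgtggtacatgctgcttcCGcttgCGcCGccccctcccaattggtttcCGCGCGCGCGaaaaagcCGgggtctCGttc
Dnmt3a, chr6:32598352-32598651, plus strand: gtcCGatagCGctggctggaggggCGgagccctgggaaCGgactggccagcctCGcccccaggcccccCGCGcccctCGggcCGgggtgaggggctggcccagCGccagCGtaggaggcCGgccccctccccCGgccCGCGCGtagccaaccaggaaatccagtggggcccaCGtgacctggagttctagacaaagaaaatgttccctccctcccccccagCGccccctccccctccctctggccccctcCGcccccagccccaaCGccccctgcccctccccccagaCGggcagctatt
The Dnmt1 window held 17 CpG and the Dnmt3a window 21, against a median of 7 over the 33469 windows of the same length. GCGCGAAA, an octamer of cell-cycle-regulated promoters that itself contains CpG, was found once in the Dnmt1 window on either strand and occurs in 0.326% of all windows. CACGTG, an E-box that also contains CpG, was found once in the Dnmt3a window and occurs in 6.42% of all windows. The palindromic glucocorticoid response element, searched by its consensus, was found in 0 windows of the members and occurs in 0.0149% of all windows. These matches are letters in a sequence, and binding was not measured.

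Among the erasers, Tet1 (ENSRNOG00000000277, chromosome 20, 27366212 to 27437427), the founding TET dioxygenase, was at 3.63, 0 and 32.3 CPM in SPS replicates 1 to 3, against 1.23, 1.60 and 42.7 CPM in Control replicates 1 to 3. Its reads numbered 40, 0 and 180 in SPS and 14, 9 and 194 in Control, and the 2 libraries numbered 3 held most of them. The log2 fold change was −0.33 ± 1.78 (SE) in edgeR, −0.36 in DESeq2 and −0.08 in limma on log2(FPKM + 1), and SPS replicate 2 held no read.

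Tet2 (ENSRNOG00000023579, chromosome 2, 238720834 to 238803024), the TET without a CXXC DNA-binding domain of its own, was at 34.7, 18.8 and 93.6 CPM in SPS replicates 1 to 3, against 16.4, 13.3 and 92.2 CPM in Control replicates 1 to 3. SPS lay above Control in all 3 same-numbered pairs, as it did in 11.6% of all genes tested, with log2 ratios of CPM + 1 of 1.04, 0.47 and 0.02. The groups overlapped, and the log2 fold change was 0.28 ± 0.88 (SE), or 0.53 ± 0.28 with the replicate block (edgeR unadjusted p = 0.110, adjusted p = 0.967). Without Control replicate 3 it was 1.70 (edgeR unadjusted p = 0.0492, adjusted p = 0.999), and without SPS replicate 3 it was −0.60. Both fits were on group alone and kept number 3 in the other group only. Without both libraries numbered 3 the log2 fold change was 0.85 (edgeR unadjusted p = 0.168).

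Tet3 (ENSRNOG00000011387, chromosome 4, 115066308 to 115157263), the TET with the highest mean level in these libraries, was at 29.6, 5.09 and 139 CPM in SPS replicates 1 to 3, against 9.28, 25.2 and 159 CPM in Control replicates 1 to 3. It had 326, 22 and 775 reads in SPS and 106, 142 and 723 in Control. The pairs numbered 1 and 2 differed in opposite directions, with log2 ratios of CPM + 1 of 1.57 and −2.10, and the pair numbered 3 differed little, at −0.19. The log2 fold change over all libraries was −0.15 ± 1.27 (SE).

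Among the readers, Mbd1 (ENSRNOG00000024104, chromosome 18, 70248712 to 70263164), a methyl-CpG-binding repressor, was at 31.3, 22.7 and 41.0 CPM in SPS replicates 1 to 3, against 27.6, 37.3 and 31.7 CPM in Control replicates 1 to 3. It varied least of the 9, with a highest level 1.81 times its lowest, and its log2 fold change was −0.02 ± 0.38 (SE). Mbd2 (ENSRNOG00000011853, chromosome 18, 65814025 to 65885114), the methyl-binding subunit of NuRD, was at 43.6, 71.5 and 28.4 CPM in SPS replicates 1 to 3, against 49.5, 42.4 and 39.6 CPM in Control replicates 1 to 3. SPS replicate 2, the library with 33116 CPM of choroid plexus markers, had its highest level. The log2 fold change of Mbd2 was 0.12 ± 0.41 (SE) with that library and −0.28 without it, and the part of choroid plexus RNA in it was not tested.

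Mbd3 (ENSRNOG00000028956, chromosome 7, 12179202 to 12186656), the other NuRD subunit and the member with the most reads, at 3095, was at 81.0, 78.7 and 20.3 CPM in SPS replicates 1 to 3, against 99.9, 85.0 and 28.4 CPM in Control replicates 1 to 3. SPS lay below Control in all 3 pairs, as it did in 13.2% of all genes tested, with log2 ratios of CPM + 1 of −0.30, −0.11 and −0.46. The groups overlapped, and both libraries numbered 3 lay far below the other 4. The log2 fold change was −0.25 ± 0.64 (SE), or −0.29 ± 0.19 with the replicate block (edgeR unadjusted p = 0.182, adjusted p = 0.967).

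**Figure D2:**
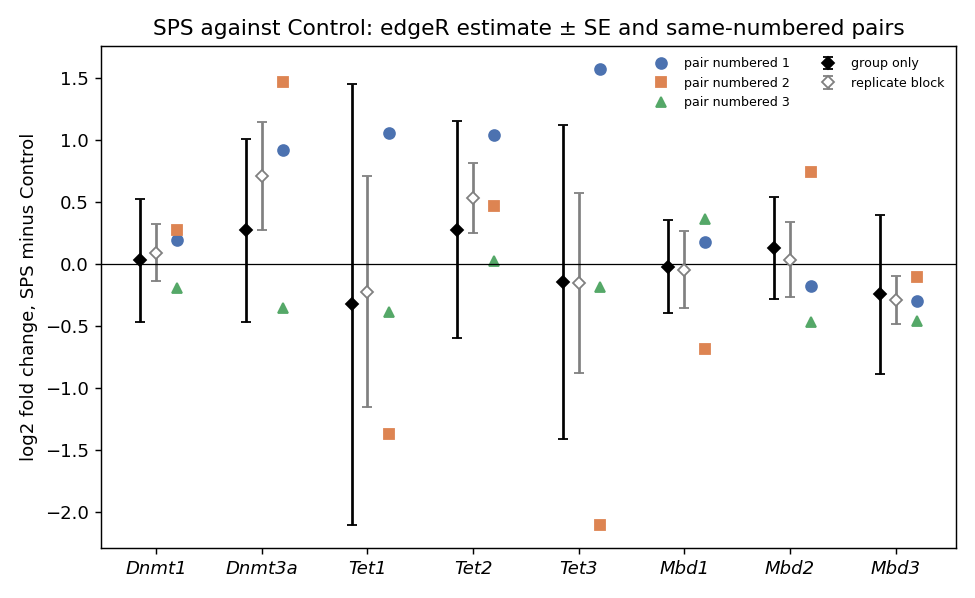
Log2 fold changes of the 8 members tested, SPS minus Control, from edgeR on group alone (filled diamonds) and with the replicate number as a block (open diamonds), both ± SE, beside the log2 ratio of CPM + 1 in each same-numbered pair. The pairs of Dnmt1, Dnmt3a, Tet1, Tet3, Mbd1 and Mbd2 lie on both sides of 0, those of Tet2 lie above 0 and those of Mbd3 below it.

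Several members differed between replicate numbers. Tet1, Tet2 and Mbd3 differed between the numbers 1, 2 and 3 in the edgeR fit that held both number and group (adjusted p = 0.0476, 0.0226 and 0.0226), 37.5% of the 8 members tested, where 14.1% of all genes tested were called. Tet3, Dnmt1 and Dnmt3a did not pass (edgeR adjusted p = 0.0624, 0.0648 and 0.0952), nor did Mbd2 and Mbd1 (edgeR adjusted p = 0.364 and 0.763). Tet1 lost its call with scaling by library totals alone (13.7% of all genes called) and with the deposited counts rounded (12%). In both of those settings Tet2 and Mbd3 were the 2 members called. DESeq2 called 6 members, where it called 20.8% of all genes. The labels do not say what a number shares. This comparison was chosen after the values were seen, and that libraries of the same number are alike across all genes was already known from these data.

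In the same fit, the libraries numbered 3 stood above the mean of numbers 1 and 2 by 4.68 ± 0.88 (SE, log2) for Tet1, by 3.11 ± 0.66 for Tet3, by 2.26 ± 0.28 for Tet2, by 1.70 ± 0.44 for Dnmt3a and by 0.90 ± 0.24 for Dnmt1. For Mbd3 the difference was −1.83 ± 0.23, for Mbd2 −0.60 ± 0.33 and for Mbd1 0.29 ± 0.32. Mean CPM of Tet3 was 149 in the libraries numbered 3 and 17.3 in the other 4, and that of Mbd3 was 24.3 and 86.2. Both libraries numbered 3 lay above the other 4 in 5 of the 8 members, 62.5% of them, where 27% of all genes tested did so, and below the other 4 in 2 members, 25%, where 23.6% of all genes did so. When 1 library is left out, its number keeps a single library, which adds nothing to the spread that the test uses. The outcome then depends on how alike the remaining pairs are, and cannot tell which libraries the calls rest on. Without SPS replicate 3 or without Control replicate 3 the fit called 0 members and 0% of all genes. Without SPS replicate 2 it called 6 members and 45.1% of genes, and without Control replicate 2 it called 7 members and 61% of genes.

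Several properties of the libraries moved with the number. Summed FPKM over all genes was 444807 in SPS replicate 3 and 455616 in Control replicate 3, against 613697 to 688456 in the other 4. Mitochondrial genes took 13.2%, 8.95% and 5.25% of reads in SPS replicates 1 to 3, against 15.6%, 11.2% and 5.94% in Control replicates 1 to 3. Neuronal marker sums were highest in the libraries numbered 3, at 11561 CPM in SPS and 12329 CPM in Control, but the markers did not all move this way. Both libraries numbered 3 lay above the other 4 for 5 of the 10 markers, among them Map2 at 3452 CPM in SPS and 3818 CPM in Control. Nefl was at 775 CPM in SPS and 856 CPM in Control in number 3, below its 1180 and 1113 CPM in number 1. Transcript length moved with the difference as well. Across 5 equal groups of the tested genes ordered by effective length, the median log2 difference of number 3 from numbers 1 and 2 was −0.91 in the shortest group, −0.33, −0.02 and 0.23 in the next 3, and 0.77 in the longest. Dnmt1, Dnmt3a, Tet1, Tet2 and Tet3 all fell in the longest group, at 1.83 to 3.47 times the length of the median gene, and Mbd2 and Mbd3 in the second, at 0.668 and 0.790 times that length. The replicate number was called in 24.1% of genes in the longest group and in 8.44% in the second, beside 14.1% of all genes tested.

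Within its own length group, Tet1 had a larger difference than 99.6% of genes, Tet3 than 98.0%, Tet2 than 93.7%, Dnmt3a than 85.2% and Dnmt1 than 57.8%. Mbd3 had a larger difference than 4.66% of its group and Mbd2 than 37.0%. The parts of length, mitochondrial share and neuronal marker levels in the differences between numbers were not tested.

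**Figure D3:**
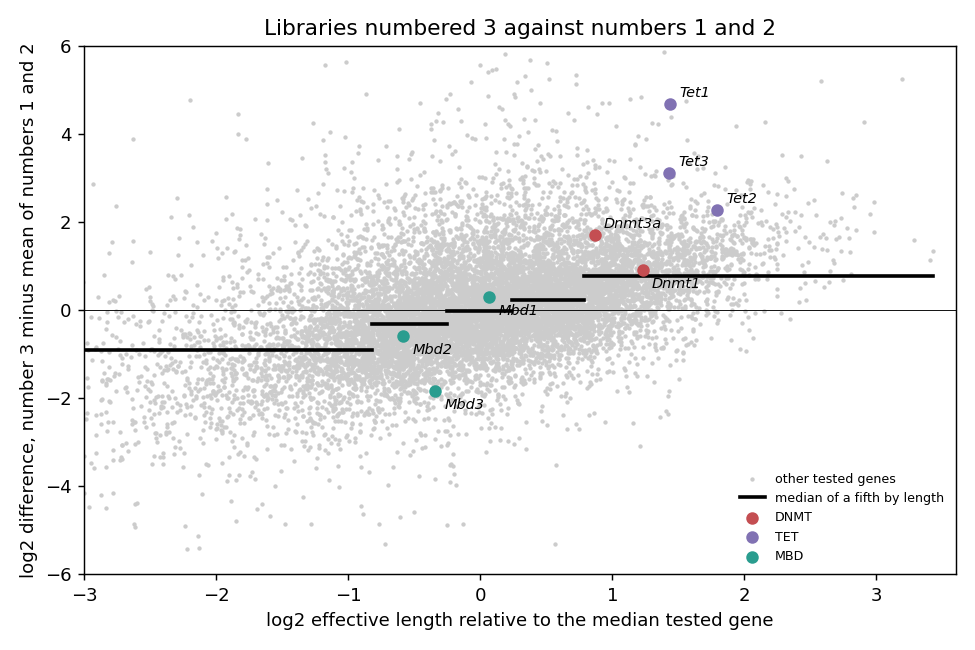
Log2 difference between the libraries numbered 3 and the mean of those numbered 1 and 2 against log2 effective length relative to the median tested gene. Grey points are other tested genes, black bars are the medians of 5 equal groups by length, and genes beyond the axes are not drawn. The medians run from −0.91 to 0.77, the TET genes lie above the bar of the longest group, and Mbd3 lies below that of the second.

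The windows around the starts of Tet2 and Mbd3 are shown because these 2 members were called for the replicate number in opposite directions and each has a single RefSeq start in the table (GRCr8, CpG in capitals).
Tet2, chr2:224746137-224746436, minus strand: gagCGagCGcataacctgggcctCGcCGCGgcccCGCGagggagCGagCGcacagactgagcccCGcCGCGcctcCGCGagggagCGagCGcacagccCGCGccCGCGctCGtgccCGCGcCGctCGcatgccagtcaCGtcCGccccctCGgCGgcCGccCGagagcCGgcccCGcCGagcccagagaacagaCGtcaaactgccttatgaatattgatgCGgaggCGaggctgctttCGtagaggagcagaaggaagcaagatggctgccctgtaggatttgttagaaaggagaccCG
Mbd3, chr7:9963390-9963689, plus strand: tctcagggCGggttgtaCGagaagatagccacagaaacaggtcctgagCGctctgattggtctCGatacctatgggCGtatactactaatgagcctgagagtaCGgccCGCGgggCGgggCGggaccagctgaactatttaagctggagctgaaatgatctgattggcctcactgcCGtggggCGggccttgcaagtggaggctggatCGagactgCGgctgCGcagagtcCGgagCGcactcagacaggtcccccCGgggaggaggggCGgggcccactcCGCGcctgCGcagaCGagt
The Tet2 window held 39 CpG and the Mbd3 window 23. GGGCGG, the GC box, which contains CpG, was found 2 times in the Tet2 window and 5 times in the Mbd3 window, counting both strands, and occurs in 33.1% of all windows. TGACGTCA, the cyclic AMP response element, was found in 0 windows of the members and occurs in 1.83% of all windows. Windows were found for 8 of the 9 members, with 3 starts for Tet1 and 4 for Tet3.

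Per transcript length, the readers had the 3 highest mean levels over the 6 libraries. Mbd3 averaged 32.5 ± 19.3 FPKM in SPS and 37.7 ± 20.7 FPKM in Control (SD, n = 3 each), and Mbd2 averaged 30.6 ± 15.5 FPKM in SPS and 27.1 ± 3.72 FPKM in Control. Over all 6 libraries the means were 35.1 FPKM for Mbd3, 28.8 for Mbd2, 12.6 for Mbd1, 8.92 for Tet3, 7.08 for Dnmt1, 6.52 for Dnmt3a, 5.14 for Tet2, 1.94 for Tet1 and 0.104 for Dnmt3b. In mean FPKM, Mbd3 stood above 79.7% of the genes tested and Tet1 above 8.86%.

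Of the 8 pairs of neighbours in that order, 0 differed after adjustment in an exact 2-sided sign-flip permutation test over the 6 libraries, whose smallest possible p is 0.0313. Most of the pairs would have had to reach that p for any to pass after adjustment, so the 0 says little about the order. Mbd2 exceeded Mbd1, and Tet2 exceeded Tet1, in 6 of 6 libraries (exact permutation p = 0.0313, adjusted p = 0.125 for each). Mbd3 exceeded Mbd2 in only 3 of the 6 libraries (exact permutation p = 0.844), and Dnmt1 exceeded Dnmt3a in 3 of the 6 (exact permutation p = 0.406). Tet3 had ranks 6, 7 and 1 of the 9 in SPS replicates 1 to 3, against ranks 7, 4 and 2 in Control replicates 1 to 3, where rank 1 is the highest level.

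**Figure D4:**
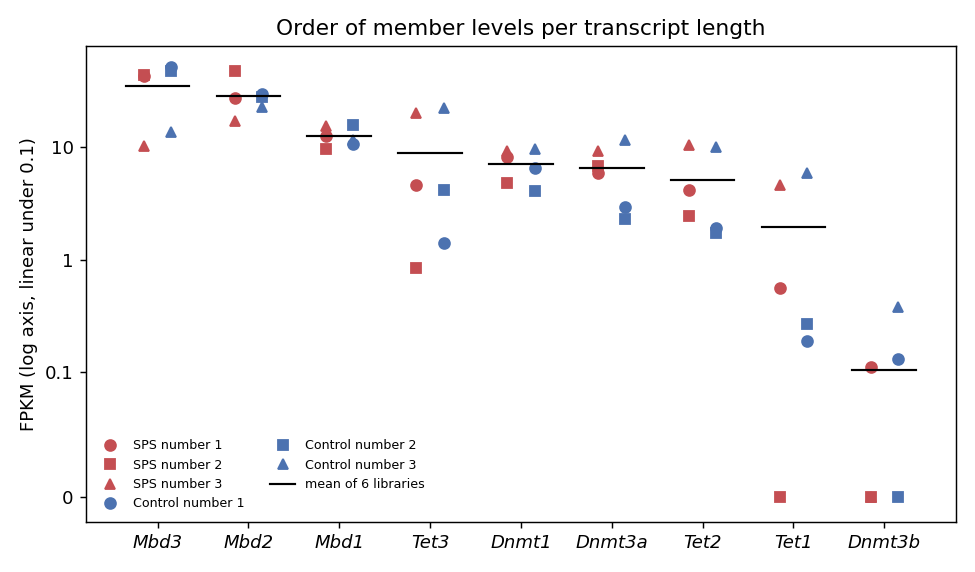
FPKM of each member in every library, on a log axis that is linear under 0.1, ordered by the mean of the 6 libraries (black bars). SPS libraries are red and stand left of Control libraries in blue, and symbols mark the replicate number. The triangles, number 3, top the TET genes and sit lowest for Mbd3, whose mean of 35.1 FPKM is the highest.

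Within families, Dnmt1 made up 57.3%, 41.3% and 49.7% of summed DNMT FPKM in SPS replicates 1 to 3, against 68.0%, 63.9% and 44.3% in Control replicates 1 to 3. The mean share in SPS minus that in Control was −9.31 points, and the groups overlapped (exact 2-sided permutation p = 0.3, where the smallest p possible with 3 against 3 is 0.1). Tet3 made up 49.2%, 25.9% and 57.0% of summed TET FPKM in SPS, against 39.9%, 67.8% and 58.2% in Control (exact permutation p = 0.4). Mbd3 made up 51.9%, 43.7% and 24.0% of summed MBD FPKM in SPS, against 55.8%, 52.1% and 28.6% in Control (exact permutation p = 0.5). These 3 tests did not use the pairs. Within same-numbered pairs, SPS minus Control was −3.89, −8.42 and −4.65 points for the Mbd3 share, lower in SPS in 3 of 3 pairs, −10.7, −22.6 and 5.39 points for the Dnmt1 share, and 9.27, −41.9 and −1.20 points for the Tet3 share.

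The balance of erasers and writers did not separate the groups either. Summed TET FPKM was 9.35, 3.27 and 35.4 in SPS replicates 1 to 3, against 3.52, 6.14 and 38.3 in Control replicates 1 to 3. The ratio of summed TET to summed DNMT FPKM was 0.659, 0.279 and 1.90 in SPS, against 0.364, 0.968 and 1.77 in Control (exact permutation p = 0.8). The ratio of summed MBD to summed TET FPKM was 8.85, 31.0 and 1.21 in SPS, against 26.2, 14.9 and 1.26 in Control (exact permutation p = 0.9). In both ratios the 2 libraries numbered 3 lay close together and apart from the other 4.

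The tested gene most like each member was the one with the smallest root mean square difference between centred log2 CPM profiles over the 6 libraries, among 9567 genes. For Dnmt1 it was Guf1, a mitochondrial translation factor (difference 0.04), and for Dnmt3a it was Fndc3b, a fibronectin type III domain protein (0.14). For Tet1 it was Diaph2, an actin-nucleating formin (0.34), for Tet2 it was Cacna1c, the pore subunit of an L-type calcium channel (0.09), and for Tet3 it was Fam135b (0.18). For Mbd1 it was Cpox, an enzyme of haem synthesis (0.07), for Mbd2 it was Oser1 (0.07), and for Mbd3 it was Nol7, a nucleolar protein (0.06). Cacna1c showed the pattern of Tet2, at 66.5, 38.4 and 180.0 CPM in SPS replicates 1 to 3, against 37.3, 25.6 and 172 CPM in Control replicates 1 to 3. Among the members themselves the closest pair was Dnmt3a and Tet2 (0.44), and the farthest was Tet1 and Mbd3 (3.58).

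Neighbouring genes of the pathway, in 5 lists, gave 0 genes past the edgeR test, whether p was adjusted or not. The list of methyl-CpG readers outside the members also held genes with related domains, such as Baz2a and Baz2b, and binding to methylated CpG was not measured. Log2 fold changes in this list were positive in 10 of 10 genes tested, with a median of 0.25, where 47.9% of all genes tested were positive. With DESeq2 or with no expression filter, settings that also tested Zbtb33, the count was 10 of 11. The count was 5 of 10 without SPS replicate 3 (median 0.06), 6 of 10 without Control replicate 1 (median 0.12) or without Control replicate 2 (median 0.14), and 9 of 10 without Control replicate 3 (median 0.67). Setdb2, a methyltransferase with a domain of the methyl-CpG-binding family, was at 7.26, 14.4 and 6.29 CPM in SPS replicates 1 to 3, against 5.60, 2.48 and 3.74 CPM in Control replicates 1 to 3 (log2 fold change 1.22 ± 0.69 SE, edgeR unadjusted p = 0.118). It was named for the smallest p of the list. Every SPS library lay above every Control library for Setdb2, 1 of the 10 genes tested, where 1.54% of all genes tested did so. Its reads numbered 80, 62 and 35 in SPS and 64, 14 and 17 in Control. Setdb2 was highest in SPS replicate 2, the library with 33116 CPM of choroid plexus markers, and the part of choroid plexus RNA in it was not tested. Baz2b and Baz2a, chromatin remodelling proteins with related domains, had log2 fold changes of 0.53 ± 0.42 and 0.33 ± 0.37 (SE; edgeR unadjusted p = 0.246 and 0.401).

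NuRD subunits outside the members had positive log2 fold changes in 3 of 13 genes, with a median of −0.12. The 3 with the smallest p were Cdk2ap1, a small NuRD subunit, at −0.31 ± 0.34, the histone chaperone Rbbp7 at −0.28 ± 0.31, and the deacetylase Hdac1 at −0.26 ± 0.35 (log2, SE; edgeR unadjusted p = 0.377, 0.402 and 0.483). Without a library the count ran from 2 to 6 of 13. The median was −0.09 without SPS replicate 2 (6 positive), −0.06 without Control replicate 3 (5 positive), −0.25 without SPS replicate 3 and −0.27 without Control replicate 1. It was −0.17 when SPS replicate 1 was left out and −0.14 when Control replicate 2 was.

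Active demethylation and base excision repair genes were positive in 10 of 17, with a median of 0.02. The median was −0.05 without Control replicate 2 (8 of 17 positive) and between 0.02 and 0.09 without each other library. Tdg, the glycosylase that removes oxidised methylcytosine, was at 47.8, 57.2 and 43.6 CPM in SPS replicates 1 to 3, against 39.2, 35.7 and 33.2 CPM in Control replicates 1 to 3. It was named for the smallest p of the list, with a log2 fold change of 0.46 ± 0.32 (SE, edgeR unadjusted p = 0.189, adjusted p = 1.00), and 0.45 with the replicate block (edgeR unadjusted p = 0.0878). Every SPS library lay above every Control library for Tdg, 1 of the 17 genes tested, where 1.54% of all genes tested did so. Idh1, an isocitrate dehydrogenase whose product is a TET cosubstrate, was at 43.9, 91.9 and 43.3 CPM in SPS replicates 1 to 3, against 48.8, 46.5 and 31.0 CPM in Control replicates 1 to 3, highest in SPS replicate 2, the library with 33116 CPM of choroid plexus markers. Gadd45a, a stress-induced gene linked to demethylation, averaged 5.25 ± 3.18 CPM in SPS and 8.34 ± 3.50 CPM in Control (SD, n = 3 each).

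Maintenance and DNMT cofactors were positive in 4 of the 9 tested of 13 listed, with a median of −0.03. The median turned to 0.03 without SPS replicate 2 and to 0.04 without Control replicate 3 (5 of 9 positive in each), and lay between −0.09 and −0.07 without each other library. Cdca7, a cofactor of the remodeller HELLS with the smallest p of the list, was at 2.36, 10.6 and 2.69 CPM in SPS replicates 1 to 3, against 1.84, 3.19 and 0.440 CPM in Control replicates 1 to 3, and was again highest in SPS replicate 2. Its reads were few, at 26, 46 and 15 in SPS replicates 1 to 3 and 21, 18 and 2 in Control replicates 1 to 3. The part of choroid plexus RNA in Idh1 and Cdca7 was not tested. Next by p were Dmap1, a DNMT1-associated protein, at 16.4 ± 9.62 CPM in SPS and 23.9 ± 12.1 CPM in Control, and Cdca7l, a relative of Cdca7, at 1.29 ± 1.26 CPM in SPS and 2.97 ± 2.02 CPM in Control (SD, n = 3 each). Cdca7l also had few reads, at 15, 0 and 14 in SPS replicates 1 to 3 and 13, 29 and 12 in Control replicates 1 to 3. Methyl donor and one-carbon genes were positive in 8 of 13, with a median of 0.07 (0.02 to 0.14 without a library). Ahcyl2, a relative of adenosylhomocysteinase, averaged 244 ± 69.7 CPM in SPS and 145 ± 87.8 CPM in Control (SD, n = 3 each). It was at 177, 316 and 239 CPM in SPS replicates 1 to 3, against 143, 58.4 and 234 CPM in Control replicates 1 to 3. Its log2 fold change was 0.75 ± 0.53 (SE, edgeR unadjusted p = 0.192). Shmt2, a mitochondrial serine hydroxymethyltransferase, averaged 29.3 ± 3.49 CPM in SPS and 22.6 ± 8.73 CPM in Control. Ahcy, which clears the product of methyl transfer, averaged 50.8 ± 6.10 CPM in SPS and 45.0 ± 9.04 CPM in Control (SD, n = 3 each for both genes).

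**Figure D5:**
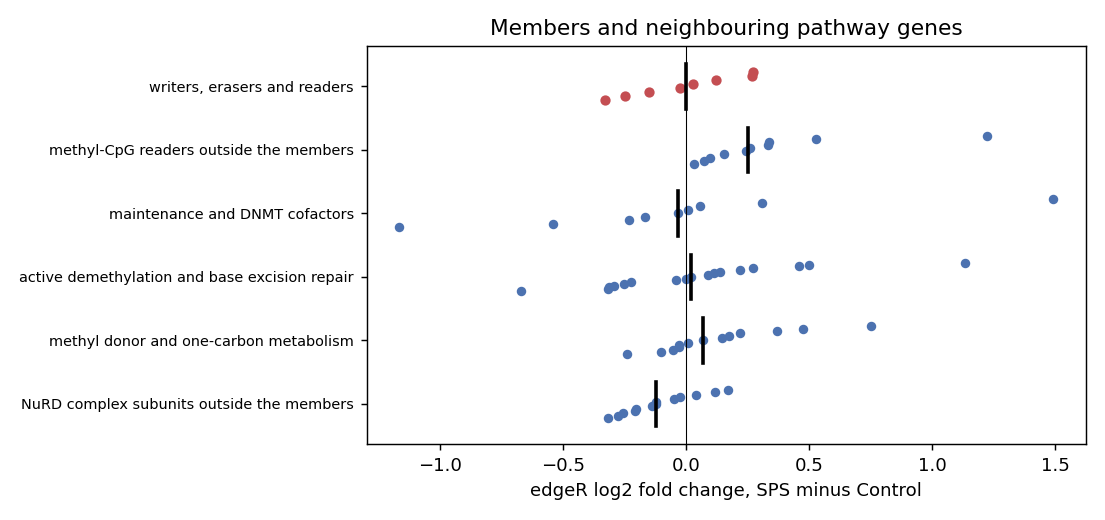
Log2 fold changes, SPS minus Control, from edgeR on group alone for the 8 members tested (red) and the tested genes of 5 neighbouring lists (blue), with medians as black bars. The medians lie between −0.12 and 0.25. The 10 genes tested in the list of methyl-CpG readers outside the members, which includes genes with related domains, lie to the right of 0.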

How the data were processed

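RNA was measured in 3 SPS and 3 Control hippocampal libraries, grouped by their titles. HISAT2 and CASAVA 1.8 are the tools named, per the submitters' processing notes, which also name hg19 although the identifiers are those of rat Ensembl genes. The sources used here do not give the rat build, the annotation, the quantifier or the strand setting of the counting. The deposited FPKM values and the deposited estimated counts are the authors' own, per the file headers. Within a library, 99.3% to 99.6% of estimated counts above 0 were whole multiples of 1 step (to within 0.05 reads), so they were divided by the step and rounded to whole reads. Depth is the sum of those reads, from 4081184 to 11838770, and it limits the low members.

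SPS was compared with Control by edgeR 4.0.16 (R 4.3.3; TMM, filterByExpr, quasi-likelihood fit on group alone, 2-sided, Benjamini-Hochberg over 12441 genes), with an SE of |log2 fold change| divided by the square root of F. A call is an adjusted p under 0.05. DESeq2 1.42.0, limma 3.58.1 on log2(FPKM + 1) at a mean FPKM of at least 0.5, other filters and scalings, and fits without each library were alternatives. Fits of SPS against Control without a library were on group alone. Fits were tested on simulated data. Effective length is the ratio of estimated count to FPKM. Level ratios used FPKM + 0.1.

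Same-numbered libraries deviated together from their group means across genes (r = 0.378, 0.336 and 0.643 for numbers 1 to 3, and at most 0.143 between different numbers), and libraries of 1 number were treated as pairs on that basis, since the labels do not say what a number shares. Without centring, Control replicate 2 was less like SPS replicate 2 (r = 0.746) than like SPS replicate 1 (r = 0.862), so number 2 is the least certain. No 2 libraries agreed within sampling noise (chi-square per degree of freedom of at least 7.22). Named genes were all members, the 3 genes of smallest p in each of 5 pathway lists, and the gene most like each tested member among those with a mean of at least 10 CPM. The members and lists were chosen with earlier results of these data known.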

Additional observations from a re-analysis of the deposited data

How the results depend on the processing

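The count of members past the adjusted threshold was 0, and that of all genes was 0, in every alternative run. Unadjusted p under 0.05 was reached by 0 members except without Control replicate 3, where it was reached by 2 members and by 1.78% of all genes. The range over the 6 fits without a library was thus 0 to 2 members. The replicate block changed no call, and gave 172 genes with an unadjusted p under 0.05 against 42 without it (DESeq2 210, no filter 146). The members' median log2 fold change lay between −0.24 and 0.99 over the fits without a library, 0.99 being without Control replicate 3. These fits were on group alone and ignored the pairs, so the number of the library left out stayed in the other group only. No member kept its direction throughout those 6 fits: the ranges were −0.29 to 0.45 for Dnmt1, −0.17 to 1.53 for Dnmt3a, −2.96 to 3.05 for Tet1, −0.60 to 1.70 for Tet2, −1.88 to 1.73 for Tet3, −0.26 to 0.17 for Mbd1, −0.28 to 0.38 for Mbd2 and −0.63 to 0.16 for Mbd3. Tet1 was at −2.96 without SPS replicate 3 and at 3.05 without Control replicate 3, and Tet3 at −1.88 and 1.73. Without both libraries numbered 2 the direction turned for Mbd2 (−0.32), Mbd1 (0.27), Dnmt3a (−0.012) and Dnmt1 (−0.051). Without both numbered 3, an alternative chosen after seeing the data, it turned for Tet1 (0.40) and Tet3 (0.025). The cause of these turns was not tested. The members called for the replicate number, 3 in all (14.1% of all genes called), were 6 with DESeq2 (20.8%) and 4 with no filter (13.5%). They were 2 with scaling by library totals alone (13.7%), 2 with the deposited counts rounded (12%), and 0 to 7 without a library (0% to 61%). The share of Mbd3 among MBD FPKM, −5.65 points as SPS minus Control, lay between −14.1 and 2.28 points without a library. That of Dnmt1 lay between −16.5 and −4.67 points, and that of Tet3 between −19.0 and −2.20 points. No neighbours in the order of levels passed in any setting, and with 5 libraries none could. Depth limits Dnmt3b, with 12 reads in all, and Tet1 outside the libraries numbered 3.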
